A study of Homo sapiens with 24 samples.

Results

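The genes described here are 55 cell cycle genes that work in DNA replication and mitosis, of 60641 gene symbols counted in all 24 libraries. The rule lists them by name and sets no threshold on a measured value, although earlier results of these data were known when they were listed. They fall into 8 roles. The proliferation markers were MKI67 and TOP2A. Replication licensing and origin firing held ORC1, CDC6, CDT1, GMNN, MCM2, MCM3, MCM4, MCM5, MCM6, MCM7, MCM10, CDC45 and GINS2. DNA synthesis and nucleotide supply held PCNA, FEN1, RRM1, RRM2 and TYMS. The G1/S group held the cyclins CCNE1 and CCNE2, the kinase CDK2, the phosphatase CDC25A and the transcription factors E2F1, E2F2, E2F7 and E2F8. Mitotic entry held CCNA2, CCNB1, CCNB2, CDK1, CDC25C, PLK1, AURKA, FOXM1 and MYBL2. The kinetochore and checkpoint group held BUB1, BUB1B, TTK, NDC80, NUF2, CENPA, CENPE and CENPF. The spindle, passenger and cytokinesis group held KIF11, KIF20A, KIF23, PRC1, TPX2, HMMR, AURKB and BIRC5, and the anaphase-promoting complex (APC) group held CDC20 and UBE2C. All 55 genes passed the filter on low counts in each of the 8 comparisons, so that none was kept for being high in 1 group.

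The libraries came from 2 human cancer cell lines, A549 from a lung adenocarcinoma and HCT116 from a colorectal carcinoma, as 8 groups of 3 libraries. In A549 these were wild type (WT B, libraries S20 to S22), the MSTRG.2513.6 DBD knockout (S17 to S19) and the MSTRG.4401.1 DBD knockout (S23 to S25). In HCT116 they were wild type (WT B, S12 to S14), the MSTRG.2513.6 DBD knockout (S8, S9 and S11), the MSTRG.4401.1 DBD knockout (S10, S15 and S16), a further wild type set (WT A, 1A to 3A) and the MSTRG.34636.7 DBD knockout (1A to 3A). A DBD is the stretch of a noncoding RNA predicted to bind DNA, and each knockout (KO) line had this stretch of 1 transcript deleted with CRISPR/Cas9. The labels name no drug or other treatment. The labels do not say whether a KO line is 1 clone or whether the 3 libraries of a group came from separate cultures, so the p-values measure only the spread between libraries, which may be technical. The deletions themselves were not checked here from the counts, because the 3 transcripts were not matched to a gene symbol.

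These genes rise and fall with the division cycle. Late in G1, cyclin E with CDK2 releases the E2F factors, which switch on the genes for DNA synthesis. The origin recognition complex, CDC6 and CDT1 load the MCM2 to MCM7 ring onto DNA, GMNN (geminin) blocks reloading, and CDC45 and the GINS complex turn the ring into an active helicase. Later, FOXM1 and MYBL2 switch on the mitotic genes, cyclin B with CDK1 drives entry into mitosis, the kinetochore and its checkpoint hold back division until chromosomes are attached, and CDC20 opens the APC that destroys cyclin B. CDKN1A (p21), an inhibitor of cyclin-dependent kinases, opposes this programme, after which RB-family complexes silence the E2F and mitotic promoters. In bulk RNA from a culture, fewer dividing cells and less of an RNA in each dividing cell cannot be told apart.

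Library totals ran from 25799359 to 102261808 counts, with the lowest totals in the A549 MSTRG.4401.1 KO (25799359 to 33205007), and the smallest count of any of the 55 genes in any library was 28. The share of counts on mitochondrial genes was 6.1% ± 2.3 (SD, n = 3) in the A549 MSTRG.4401.1 KO (3.5%, 7.87% and 6.93% in S23, S24 and S25), and the means of the other groups lay between 1.64% and 2.57%. Libraries S8 and S9, labelled HCT116 MSTRG.2513.6 KO, went against their cell line label. Summed over 5 A549 markers (AKR1B10, AKR1C1, ALDH1A1, ALDH3A1 and HTRA1), S8 held 8984 and S9 held 9174 CPM (counts scaled to a common library total), within the 6465 to 9849 CPM of the A549 libraries, where the other HCT116 libraries held 4.49 to 10.8 CPM. Summed over 6 HCT116 markers (EPCAM, CDH17, VIL1, CDX1, CDX2 and LGALS4), S8 held 8.01 and S9 held 10.5 CPM, against 8.35 to 25.8 CPM in the A549 libraries and 132 to 272 CPM in the other HCT116 libraries. EPCAM and CDX2 made this difference, while CDX1 and LGALS4 were at or near 0 in every library. The other markers of this list did not follow the labels, since CDH17 was higher in A549 (5.21 to 16.3 CPM) than in the other HCT116 libraries (0.116 to 1.76 CPM) and VIL1 overlapped between the lines. Of the 55 genes, 53 in S8 and 51 in S9 lay within the range of the A549 libraries, against 25 in S11, the remaining library of that group. The range of the other HCT116 libraries, which is wide, held 39, 40 and 27 genes of S8, S9 and S11. The comparison that rests on S8 and S9 is given below as labelled and without them. Of the 55 genes, 21 share exon sequence with another gene, 18 on the opposite strand and 5 on the same strand (BUB1B, CENPA, FEN1, MCM7 and PRC1), and their counts are less certain.

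The promoters show what the roles share in sequence. RefSeq promoter windows (GRCh38.p14, 250 bases before to 50 after a gene start) were matched for 44 of the 55 genes, and 3 motifs were searched on both strands: the cell cycle homology region (CHR, TTTGAA or TTCGAA), where the silencing complexes of mitotic genes bind, the CCAAT box (CCAAT), bound by the factor NF-Y, and an E2F site (TTTCCCGC, TTTCGCGC, TTTGCCGC or TTTGGCGC). The CHR letters were in 67.9% of the 28 windows of the mitotic roles and the proliferation markers, in 7.14% of the 28 windows of the G1/S and replication roles, and in 16.4% of all 35116 windows. The E2F letters ran the other way, at 10.7%, 46.4% and 3.31% of the same windows. The CCAAT box was in 75.0% and 71.4% of the windows of these groups and in 34.6% of all windows. A match is a string of letters and was not tested for binding. The promoters of 6 genes are printed from 200 bases upstream of the start, 5′ to 3′ on the strand of the gene, with matches in capitals, to show the mitotic kind (TOP2A, CDC20 and CENPA), the G1/S kind (CDC25A), RRM2, which held CCAAT letters alone, and MCM2, whose E2F letters lay 2 and 6 bases downstream of the start, just past the printed stretch.
TOP2A (chr17:40417897-40418096, minus strand): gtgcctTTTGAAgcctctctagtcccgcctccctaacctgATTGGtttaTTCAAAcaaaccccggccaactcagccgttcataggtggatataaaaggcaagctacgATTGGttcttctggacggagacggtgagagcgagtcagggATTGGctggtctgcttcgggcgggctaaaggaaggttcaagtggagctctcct
CDC20 (chr1:43358781-43358980, plus strand): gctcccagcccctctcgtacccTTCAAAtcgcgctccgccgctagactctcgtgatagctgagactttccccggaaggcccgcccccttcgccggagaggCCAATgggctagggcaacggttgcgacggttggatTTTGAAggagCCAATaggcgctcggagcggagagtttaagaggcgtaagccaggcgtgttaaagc
CENPA (chr2:26785856-26786055, plus strand): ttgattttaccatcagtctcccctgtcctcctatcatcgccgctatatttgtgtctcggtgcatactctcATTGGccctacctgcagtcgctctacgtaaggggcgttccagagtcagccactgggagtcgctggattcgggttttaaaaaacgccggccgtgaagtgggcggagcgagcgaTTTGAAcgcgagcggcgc
CDC25A (chr3:48188418-48188617, minus strand): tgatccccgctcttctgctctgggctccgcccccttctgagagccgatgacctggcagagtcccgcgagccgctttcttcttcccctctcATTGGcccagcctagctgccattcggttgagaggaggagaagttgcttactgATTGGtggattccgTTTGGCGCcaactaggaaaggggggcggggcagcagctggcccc
RRM2 (chr2:10122539-10122738, plus strand): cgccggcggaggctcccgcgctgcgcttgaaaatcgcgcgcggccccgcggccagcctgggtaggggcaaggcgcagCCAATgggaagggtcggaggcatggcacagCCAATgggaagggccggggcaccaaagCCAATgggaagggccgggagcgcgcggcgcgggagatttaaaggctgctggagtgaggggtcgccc
MCM2 (chr3:127598211-127598410, plus strand): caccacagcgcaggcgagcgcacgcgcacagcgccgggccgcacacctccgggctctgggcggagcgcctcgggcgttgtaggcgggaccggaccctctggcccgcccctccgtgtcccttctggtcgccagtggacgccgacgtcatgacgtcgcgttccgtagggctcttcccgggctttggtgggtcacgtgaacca
The TOP2A stretch held the CHR letters 194 and 151 bases and the CCAAT letters 160, 93 and 53 bases upstream of the start. The CDC20 stretch held the CHR letters at 178 and 65 bases and the CCAAT letters at 100 and 55 bases. The only E2F match among the 6 stretches lay 44 bases upstream of the start of CDC25A, beside CCAAT boxes at 110 and 58 bases. Not all mitotic promoters were of the mitotic kind shown. In the 200 bases upstream of its start, MYBL2 held none of the 3 motifs. The same stretch of AURKB, from the first of its 2 windows, held no CHR or E2F letters and 1 CCAAT box, at 153 bases. Of the other genes to which the results return, CDC6 lies at chr17:40287879-40304657 on the plus strand, BIRC5 at chr17:78214186-78225636 on the plus strand, AURKB at chr17:8204733-8210600 on the minus strand and MYBL2 at chr20:43667019-43716495 on the plus strand (GRCh38, GENCODE v44).

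In the text that follows, levels are CPM of the library total, and compare one gene between libraries only, since they are not divided by gene length. A gene passed the test, and is said to have risen or fallen, when its p in the quasi-likelihood test of edgeR, adjusted over all genes tested (the false discovery rate, FDR), was below 0.1. It was called when its log2 fold change also exceeded 1 in size, the thresholds of the study. Each share of all genes tested that passed or was called is the background for the count over the 55 genes.

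**Figure D1:**
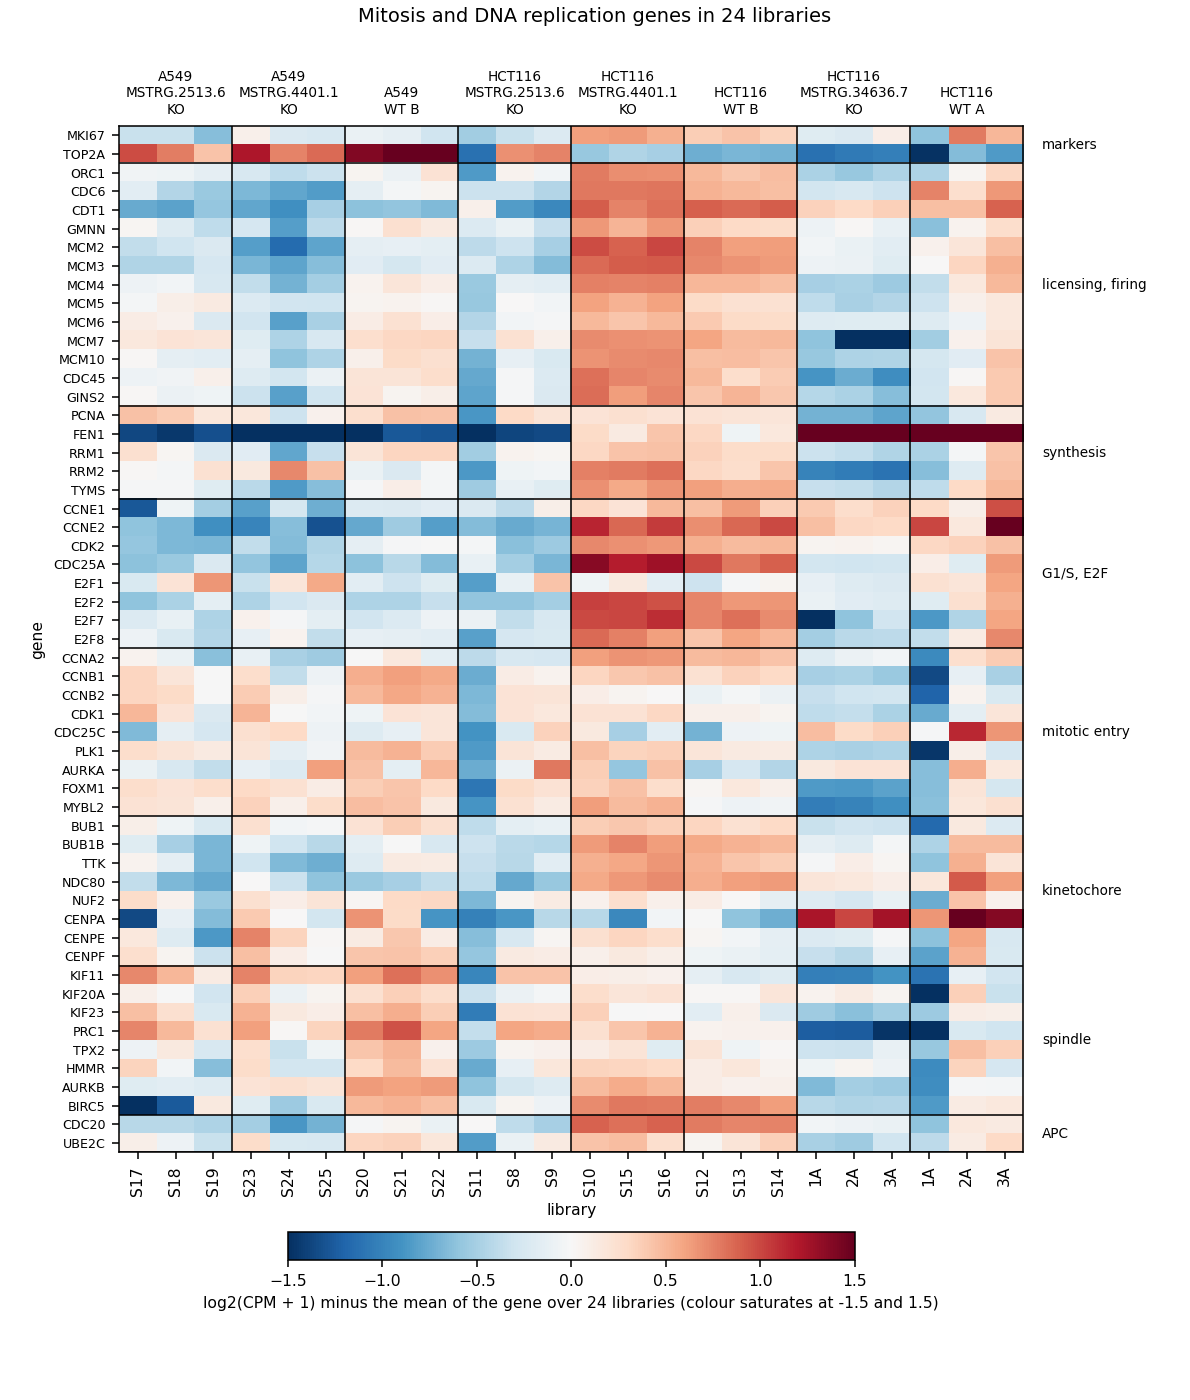
Each row is 1 of the 55 genes, ordered by role, and each column 1 of the 24 libraries, in their groups. Colour gives log2(CPM + 1) minus the mean of the gene over all libraries, from blue (lower) to red (higher). The HCT116 MSTRG.4401.1 KO libraries are red over most roles, S11 and the MSTRG.34636.7 KO libraries are blue over most, and WT A 1A is blue in the mitotic roles where 2A and 3A are paler or red. S8 and S9 resemble the A549 columns, at TOP2A for example.

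The cell lines themselves differed at these genes before any deletion, as they did over all genes tested, of which a larger share was called. The direction differed by role. The G1/S genes were lower in A549 WT B than in HCT116 WT B for 7 of 8, while the mitotic entry genes were higher for 8 of 9 and the spindle genes for 7 of 8. Over all 55 genes, 23 were higher and 18 lower, where 31.2% and 31.7% of 27882 genes tested were higher and lower, and 6 were called, where 35.7% of all genes were. The median log2 difference was 0.08, against -0.02 over all genes. TOP2A, the topoisomerase that untangles sister chromatids, was at 859.8, 992 and 974 CPM in A549 WT B and at 198, 204 and 200.2 CPM in HCT116 WT B (log2 fold change 2.49, SE 0.061, adjusted p = 1.28e-07). KIF11, the motor that pushes spindle poles apart, was at 163, 189.8 and 172 CPM and 96.5, 89.9 and 92.8 CPM (log2 fold change 1.17, SE 0.065, adjusted p = 5.08e-06). The midzone crosslinker PRC1 and the kinase AURKA followed, with log2 differences of 0.99 (SE 0.11) and 0.97 (SE 0.18).

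At the other end stood genes of the G1/S step. CDC25A, the phosphatase that activates CDK2, was at 21.2, 24.5 and 20.7 CPM in A549 and at 66.8, 58.2 and 62.3 CPM in HCT116 (log2 fold change -1.23, SE 0.094, adjusted p = 2.43e-05). CCNE2, a cyclin E, was at 6.73, 8.12 and 6.42 CPM and 20.4, 22.9 and 25.2 CPM (log2 fold change -1.42, SE 0.14, adjusted p = 9.80e-05). CDT1, the licensing factor, was at 76.9, 77.7 and 74.0 CPM and 221, 214 and 223 CPM (log2 fold change -1.26, SE 0.067, adjusted p = 3.85e-06). None of these values overlapped between the lines. FEN1, the flap nuclease, differed by -1.47 on the log2 scale (SE 0.14), but its counts are uncertain, since its exons overlap those of FADS2 and it was at 1.09 to 15.1 CPM in all S-numbered libraries and at 74.8 to 143 CPM in all libraries numbered 1A to 3A. The normalisation moved this comparison, with a median shift of 0.26 between the fitted log2 differences and those of CPM, and BUB1 and RRM1, which passed as higher, were lower in CPM. In a fit of all libraries together 22 of the 55 genes passed.

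The remaining marker genes gave smaller differences between the lines. PCNA, the sliding clamp of the replication fork, was at 328 ± 22.9 CPM (mean and SD, n = 3) in the A549 wild type and at 289 ± 4.20 CPM in that of HCT116 (log2 fold change 0.44, SE 0.049, adjusted p = 0.000189). CCNB1, the mitotic cyclin, was at 241 ± 6.06 and 198 ± 7.81 CPM (log2 fold change 0.54, SE 0.065, adjusted p = 0.000261). CDK1, its kinase, was at 123 ± 12.6 and 119 ± 1.34 CPM, which overlapped in CPM (log2 fold change 0.31, SE 0.058, adjusted p = 0.00272). MKI67, the antigen used to score dividing cells, was lower in A549 at 429 ± 30.9 against 628 ± 19.1 CPM (log2 fold change -0.28, SE 0.098, adjusted p = 0.04). MCM2 was also lower in A549 (log2 fold change -0.54, SE 0.066, adjusted p = 0.000302), as was CDC20 (log2 fold change -0.52, SE 0.073, adjusted p = 0.000659). E2F1 was at 31.8, 28.6 and 31.5 and 28.6, 35.3 and 36.8 CPM and did not pass (log2 fold change 0.13, SE 0.12, adjusted p = 0.398).

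In A549, deletion in MSTRG.4401.1 went with lower levels of most of these genes, first of all the replication licensing genes. Against A549 WT B, 33 of the 55 genes fell and 1 rose, where 22.4% of 24979 genes tested fell and 21.3% rose. The median log2 fold change was -0.46, against 0.12 over all genes. Of the 13 licensing and firing genes 12 fell, with a median of -0.67, and of the 5 synthesis genes 4 fell and 1 rose, with a median of -0.72. The spindle genes fell for 6 of 8 (median -0.48), the mitotic entry genes for 4 of 9 (-0.24), the kinetochore genes for 2 of 8 (-0.22), and the G1/S genes for 2 of 8 (-0.10). CDC20, UBE2C and TOP2A make up the rest. DESeq2 gave 36 lower and 1 higher. FEN1 was the only called gene, where 15.4% of all genes were called.

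MCM2, a subunit of the helicase ring, was at 115, 91 and 117 CPM in the KO libraries and at 186, 187 and 183 CPM in wild type (log2 fold change -0.87, SE 0.13, adjusted p = 0.00241). CDC6, which loads that ring, was at 59.0, 54.9 and 52.5 CPM against 86.3, 92.7 and 97.4 CPM (log2 fold change -0.81, SE 0.089, adjusted p = 0.000669). The KO libraries were below every wild type library for both genes, and S24 was the lowest for MCM2 and S25 for CDC6. The other subunits fell too, with log2 fold changes from -0.38 (SE 0.098) at MCM5 to -0.75 (SE 0.14) at MCM6. GMNN, the inhibitor of reloading, fell as well (log2 fold change -0.70, SE 0.16, adjusted p = 0.0127). CDT1 was the licensing gene that did not pass (log2 fold change -0.17, SE 0.14, adjusted p = 0.371).

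Among the synthesis genes, TYMS, which makes thymidylate, was at 91.7, 66.8 and 77.8 CPM against 119.6, 129.7 and 119 CPM (log2 fold change -0.72, SE 0.13, adjusted p = 0.00487). RRM1, the large subunit of ribonucleotide reductase, was at 125, 81.9 and 111 CPM against 162, 176 and 176 CPM (log2 fold change -0.77, SE 0.15, adjusted p = 0.00673). PCNA was at 284, 203 and 262 CPM against 301, 341 and 340.4 CPM, with the KO libraries below the wild type ones (log2 fold change -0.47, SE 0.14, adjusted p = 0.0319). RRM2, the small subunit of the same enzyme as RRM1, went the other way, at 539, 798 and 658 CPM against 452, 419 and 476 CPM (log2 fold change 0.49, SE 0.16, adjusted p = 0.0448). It was highest in S24 and S25, the libraries with the largest mitochondrial share, and without them its log2 fold change was 0.11 (adjusted p = 0.577), while leaving out S24, S25, S21 or S22 singly also ended its pass. FEN1 was at 1.96, 1.09 and 2.21 CPM against 3.18, 3.99 and 3.90 CPM (log2 fold change -1.14, SE 0.29, adjusted p = 0.0195), and without S24, where its 28 counts were the smallest of any of the 55 genes, it was no longer called.

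On the mitotic side, BIRC5 (survivin, a chromosomal passenger) was at 111, 86.3 and 108 CPM against 177, 181 and 172 CPM (log2 fold change -0.88, SE 0.13, adjusted p = 0.00223). CDC20 was at 121, 93.6 and 105 CPM against 169.6, 177 and 160.4 CPM (log2 fold change -0.75, SE 0.12, adjusted p = 0.00335). CCNB1 was at 195, 125 and 153 CPM against 236, 248 and 239.7 CPM (log2 fold change -0.69, SE 0.15, adjusted p = 0.0107). The 3 genes were each below the wild type range in all KO libraries, with S24 the lowest. TOP2A was lower too, at 765, 551 and 590.4 CPM (log2 fold change -0.65, SE 0.14, adjusted p = 0.00977), and TTK, a checkpoint kinase, fell by 0.68 on the log2 scale (SE 0.13, adjusted p = 0.00637). MKI67 stayed at 511, 417 and 408 CPM against 452, 441 and 394 CPM, with overlapping groups (log2 fold change -0.03, SE 0.13, adjusted p = 0.863). CDK1 overlapped as well, at 162, 113 and 111 CPM against 109, 132 and 129.5 CPM (log2 fold change -0.02, SE 0.14, adjusted p = 0.925). Of the G1/S genes that the E2F factors form or feed, E2F1 was at 28.2, 40.6 and 53.6 CPM (log2 fold change 0.34, SE 0.23, adjusted p = 0.271) and CCNE2 at 5.63, 7.44 and 4.34 CPM (log2 fold change -0.38, SE 0.23, adjusted p = 0.227), and neither passed.

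The high mitochondrial share and low totals of these KO libraries moved with this decrease. The count of 34 did not change when mitochondrial genes were left out. This removes only their own counts, so it cannot test what goes with a high mitochondrial share. The part of the totals was not tested. Without S24 and S25 the lone library S23, assumed to vary like the other groups, gave 20 genes that fell, with a median of -0.32. Leaving out single libraries gave 24 (without S21) to 40 (without S23) genes that passed.

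Other S-phase and mitotic genes moved with these. Of 32 other S-phase genes, 22 fell and 1 rose, where 22.4% of all genes tested fell and 21.3% rose. The clamp loader RFC3 fell from a mean of 53 to 25.9 CPM (log2 fold change -1.11, SE 0.16, adjusted p = 0.00238). The single-strand binding protein RPA1 fell by 1.05 on the log2 scale (SE 0.11) and thymidine kinase TK1 by 0.97 (SE 0.14). Of 35 other mitotic genes 15 fell and 1 rose, among them the condensin subunit SMC2 (-1.0, SE 0.12), the abscission factor CEP55 (-0.64, SE 0.12) and the checkpoint protein MAD2L1 (-0.60, SE 0.12). Among the inhibitors, CDKN1A was at 53.2, 34.0 and 41.7 CPM against 70.7, 77.9 and 85.5 CPM, below the wild type range in all 3 libraries (log2 fold change -0.94, SE 0.15, adjusted p = 0.00309). Of 18 cell cycle brakes tested 5 fell, RB1 (-0.61, SE 0.13) among them, which is near the share over all genes. The median of the brakes was -0.06, against 0.12 over all genes. Of 7 G1 drivers tested 5 fell, including CDK4 (-0.88, SE 0.14) and MYC (-0.59, SE 0.11). MDM2 (log2 fold change -0.18, SE 0.11, adjusted p = 0.243) and CCND1 (log2 fold change -0.25, SE 0.11, adjusted p = 0.116) did not pass.

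In HCT116, deletion in the same transcript went with small increases over the same genes. Against HCT116 WT B, 30 of the 55 genes rose, where 7.57% of 26615 genes tested rose. None fell by edgeR or DESeq2, where 8.72% of all genes fell by edgeR. None was lower at an unadjusted p below 0.05 either, where 3570 of 26615 genes tested were. The median log2 fold change was 0.19, against 0.003 over all genes. Of the licensing and firing genes 12 of 13 rose (median 0.26), as did 5 of 9 mitotic entry genes, 4 of 8 spindle genes, 4 of 8 G1/S genes, 2 of 8 kinetochore genes, both proliferation markers and 1 of 5 synthesis genes. No gene was called by edgeR or DESeq2, where 2.62% of all genes were called by edgeR. None was past the same fold at an unadjusted p below 0.05 either, and the share of all genes at that p and fold was not counted.

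MYBL2, a transcription factor of the mitotic genes, was at 160.1, 144 and 149 CPM in the KO libraries and at 102, 98.2 and 99.4 CPM in wild type (log2 fold change 0.58, SE 0.054, adjusted p = 0.000777). RRM2 was at 819, 833 and 859 CPM against 603, 582 and 648 CPM (log2 fold change 0.44, SE 0.046, adjusted p = 0.00123). AURKB, the passenger kinase, was at 94.8, 101 and 95.7 CPM against 73.8, 71.5 and 71.9 CPM (log2 fold change 0.41, SE 0.044, adjusted p = 0.00144). The replicates were tight, with a median coefficient of variation over the 55 genes of 4.23% in the KO and 3.54% in wild type, so that differences of this size lay outside the spread. CDC45, which joins the MCM ring to the active helicase, was at 63.8, 60.1 and 59.0 CPM against 50.3, 42.9 and 46.7 CPM (log2 fold change 0.38, SE 0.067, adjusted p = 0.0119). MCM2 was at 401, 376 and 408 CPM against 341, 312 and 314 CPM (log2 fold change 0.28, SE 0.047, adjusted p = 0.00975). CDC6 was at 165, 164 and 167 CPM against 137, 134 and 130.4 CPM (log2 fold change 0.29, SE 0.039, adjusted p = 0.00337). All 3 loading and firing genes were above every wild type library.

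The proliferation markers rose as well. MKI67 was at 740.2, 749.7 and 698 CPM against 623, 649 and 612 CPM (log2 fold change 0.20, SE 0.055, adjusted p = 0.0556). TOP2A was at 221, 240.2 and 232 CPM against 198, 204 and 200.2 CPM (log2 fold change 0.19, SE 0.044, adjusted p = 0.0322). CDK1 was at 133, 132 and 141 CPM against 119.7, 119 and 117 CPM (log2 fold change 0.17, SE 0.039, adjusted p = 0.0287). The remaining marker genes did not pass, with log2 fold changes of 0.09 (SE 0.049) at CCNB1, 0.10 (SE 0.038) at CDC20, 0.06 (SE 0.12) at E2F1, 0.16 (SE 0.11) at CCNE2 and 0.01 (SE 0.037) at PCNA.

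Genes of the companion lists rose as well, while CDKN1A and MDM2 fell. Of the other S-phase genes 13 of 32 rose, led by the primase partner POLA2 (log2 fold change 0.45, SE 0.076, adjusted p = 0.0102) and the leading-strand polymerase POLE (0.43, SE 0.041). Of the other mitotic genes 17 of 35 rose, including separase ESPL1 (0.58, SE 0.04) and the motor KIF18A (0.58, SE 0.045). CDKN1A was at 199.7, 212 and 211 CPM against 335, 333 and 325 CPM (log2 fold change -0.69, SE 0.038, adjusted p = 8.53e-05). MDM2, a ubiquitin ligase, was at 343, 365 and 365 CPM against 453, 447 and 433 CPM (log2 fold change -0.32, SE 0.04, adjusted p = 0.00244). CDK6, a G1 kinase, rose by a log2 fold change of 1.02 (SE 0.064), while CCND1, its cyclin, fell (log2 fold change -0.23, SE 0.045, adjusted p = 0.0172). In all, 3 of 7 G1 drivers rose and 1 fell, and 1 of 19 brakes rose and 3 fell. Over all genes tested, 7.57% rose and 8.72% fell.

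The pass of these genes depended on the libraries in the fit. In a fit of all HCT116 libraries, which include S8, S9 and the spread-out WT A set, the median was again 0.19 but 0 of the 55 genes passed by edgeR. Against WT A in place of WT B, 18 rose and 2 fell. Without S14 the count was 20.

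**Figure D2:**
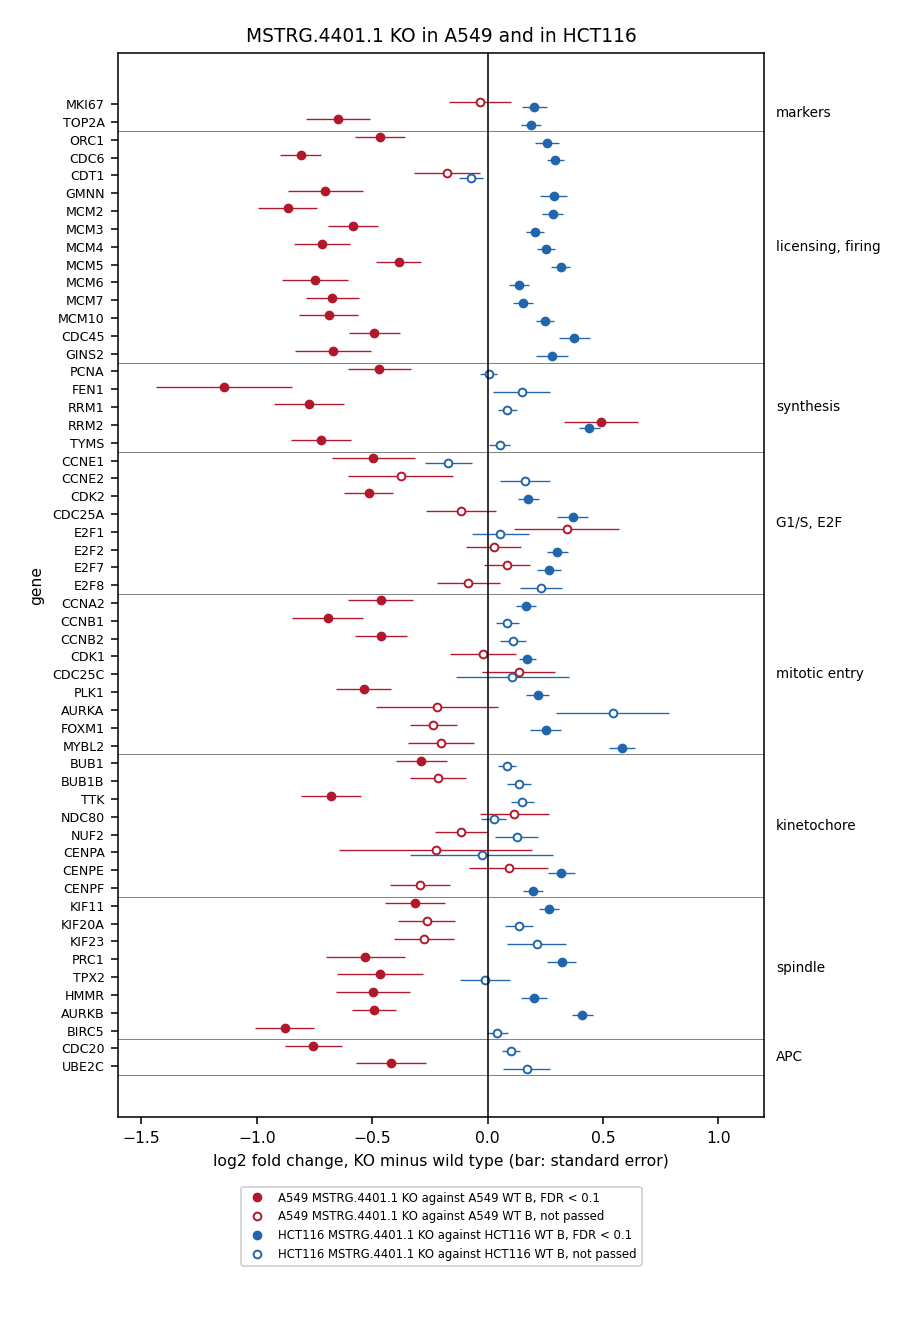
Points give the log2 fold change of the MSTRG.4401.1 KO against wild type for each of the 55 genes, in A549 (red) and HCT116 (blue), with bars of 1 standard error, and filled points passed at FDR below 0.1. Most red points lie left of 0 with a median of -0.46 and most blue points lie just right of 0 with a median of 0.19, while RRM2 lies right of 0 in both.

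The difference between the lines was tested directly, as the interaction of cell line and deletion over these 12 libraries. The effect in A549 was lower than in HCT116 for 39 of the 55 genes, where it was lower for 15.4% and higher for 11.6% of 30134 genes tested. It was higher for none by edgeR, by DESeq2 (42 lower) or at an unadjusted p below 0.05 (41 lower). At that p the effect was higher for 4508 and lower for 5367 of all genes tested. The median difference was -0.66, against 0.10 over all genes. The licensing genes differed for 12 of 13 (median -0.91), the spindle genes for 7 of 8, the mitotic entry genes for 6 of 9, the synthesis genes for 4 of 5, the kinetochore genes for 4 of 8, the G1/S genes for 3 of 8, and CDC20, UBE2C and TOP2A made up the rest. The difference of effects was -1.18 (SE 0.15, adjusted p = 0.000371) at MCM2 and -1.14 (SE 0.089, adjusted p = 9.72e-06) at CDC6. RRM2 passed as higher in both lines, though in A549 its log2 fold change was 0.11 without S24 and S25. Its difference of effects was 0.01 (SE 0.17, adjusted p = 1). MKI67 (-0.27, adjusted p = 0.26) and CDKN1A (-0.28, adjusted p = 0.308) did not pass either. Without S24 and S25, 37 genes passed, all lower.

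**Figure D3:**
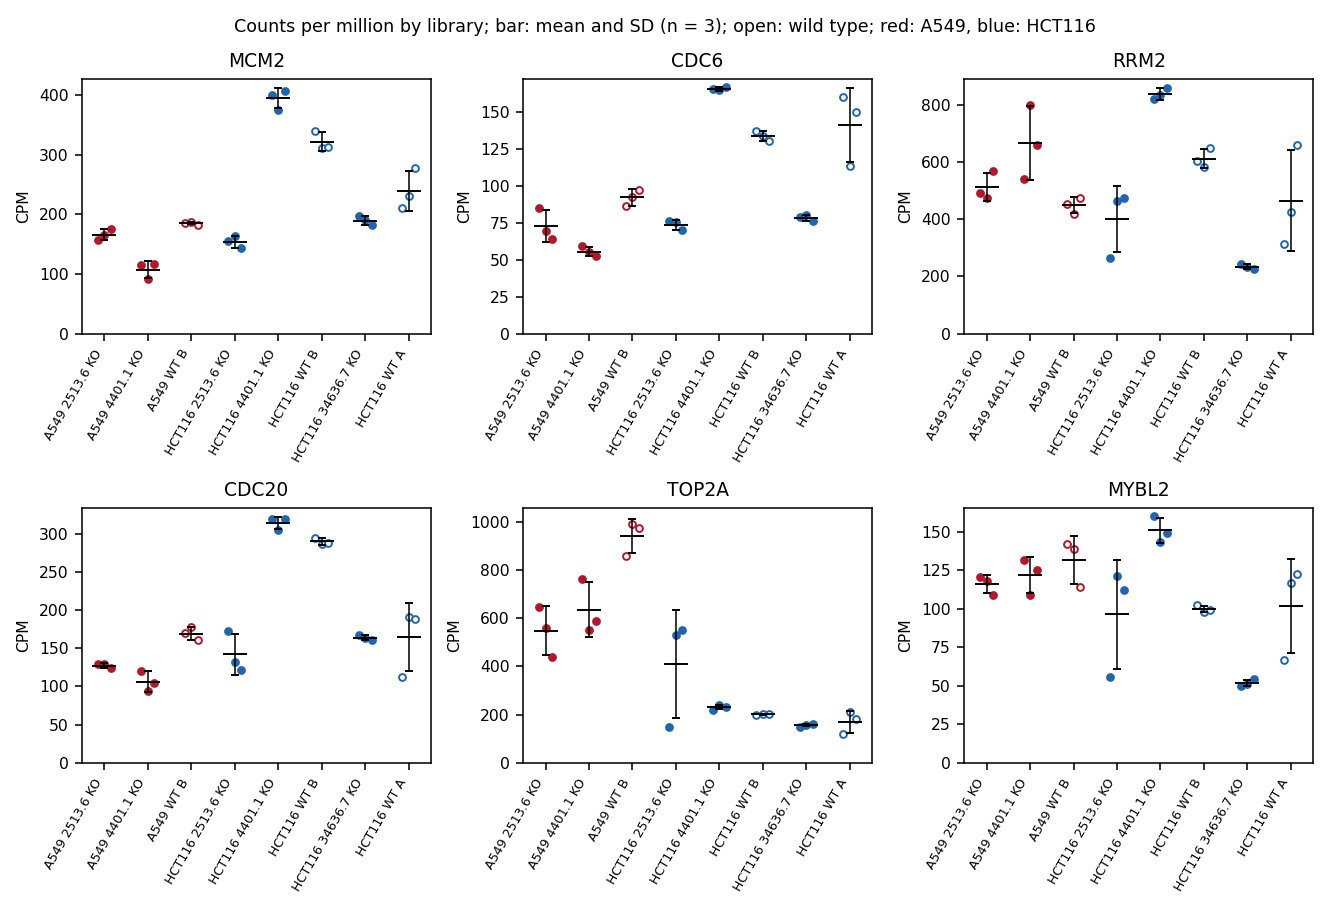
Each point is 1 library and the bar gives the mean and SD (n = 3) of CPM in each of the 8 groups for MCM2, CDC6, RRM2, CDC20, TOP2A and MYBL2, with open points for wild type, red for A549 and blue for HCT116. MCM2 and CDC6 are below wild type in the A549 MSTRG.4401.1 KO and above it in the HCT116 one, RRM2 is above it in both, and in the HCT116 MSTRG.2513.6 KO 2 of the 3 TOP2A points, S8 and S9, lie at 531 CPM and 551 CPM apart from S11 at 150.2 CPM.

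With deletion in MSTRG.2513.6 in A549, few of these genes passed the test, though most were lower in sign. Against the same A549 WT B libraries that served the comparison above, 4 of the 55 genes fell, where 3.19% of 25666 genes tested fell. Of the 55 genes 49 had a negative log2 fold change, and the share of negative signs over all genes was not counted. None rose by edgeR or DESeq2, where 2.77% of all genes rose by edgeR. Only 1 was higher at an unadjusted p below 0.05, where 2072 of 25666 genes tested were. The median was -0.25, against -0.03 over all genes. At an unadjusted p below 0.05, 16 of the 55 genes were lower, where 2228 of 25666 genes tested were. No gene was called by edgeR or DESeq2, where 2.92% of all genes were called by edgeR. At an unadjusted p below 0.05, 1 was past the same fold, and the share of all genes at that p and fold was not counted.

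AURKB was at 60.1, 60.7 and 59.5 CPM in the KO libraries and at 107, 104 and 106 CPM in wild type (log2 fold change -0.81, SE 0.094, adjusted p = 0.00421). TOP2A was at 646, 561 and 440.3 CPM against 859.8, 992 and 974 CPM (log2 fold change -0.77, SE 0.16, adjusted p = 0.0446). CDK2 was at 50.3, 47.2 and 46.9 CPM against 69.1, 74.7 and 75.2 CPM (log2 fold change -0.60, SE 0.095, adjusted p = 0.0161). The KO libraries were below every wild type library for these genes. CDC20 was at 129, 129 and 124 CPM against 169.6, 177 and 160.4 CPM (log2 fold change -0.41, SE 0.1, adjusted p = 0.0797). Leaving out any 1 library ended the pass of CDC20 (adjusted p up to 0.312, without S21), leaving out S18, S20, S21 or S22 ended that of TOP2A (up to 0.176, without S21), and leaving out S21 ended that of CDK2 (0.104). BIRC5 was spread widely, at 40.0, 52.0 and 139.7 CPM, and did not pass (log2 fold change -1.22, SE 0.4, adjusted p = 0.17).

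The licensing genes did not pass in this line, with log2 fold changes from -0.33 to 0.02 and a median of -0.16, and MCM2 was at 158, 166 and 175 CPM (log2 fold change -0.16, SE 0.09, adjusted p = 0.428). The remaining marker genes did not pass either, at -0.26 (SE 0.14) for MKI67, -0.40 (SE 0.12) for CCNB1, 0.09 (SE 0.19) for CDK1, 0.48 (SE 0.2) for E2F1, -0.02 (SE 0.19) for CCNE2 and -0.04 (SE 0.12) for PCNA. CDKN1A rose, at 156, 177 and 148 CPM against 70.7, 77.9 and 85.5 CPM (log2 fold change 1.05, SE 0.11, adjusted p = 0.00279). MDM2 did not pass (log2 fold change 0.34, SE 0.14, adjusted p = 0.268), nor did CCND1 (log2 fold change 0.20, SE 0.13, adjusted p = 0.49). Of the companion genes, 1 of 32 other S-phase genes (RPA1), 2 of 35 other mitotic genes (NCAPH and SMC2) and 2 of 7 G1 drivers (E2F3 and CDK6) fell, where 3.19% of all genes fell. Each of these 5 genes lost its pass without S21, at adjusted p values up to 0.304 (RPA1).

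Set directly against each other, the KO lines of A549 differed in the replication genes. In the MSTRG.4401.1 KO, 15 of the 55 genes were lower than in the MSTRG.2513.6 KO, where 19.8% of 25161 genes tested were lower, namely 10 of 13 licensing genes, 4 of 5 synthesis genes and CDC20. None was higher by edgeR or by DESeq2 (17 lower), where 17.4% of all genes were higher by edgeR. At an unadjusted p below 0.05 none was higher and 17 were lower, where 4896 and 5383 of 25161 genes tested were. The median was -0.18, against 0.09 over all genes, and 1 gene, FEN1, was called, where 16.6% of all genes were. MCM2 was at 115, 91 and 117 CPM against 158, 166 and 175 CPM (log2 fold change -0.77, SE 0.15, adjusted p = 0.00671). TYMS was at 91.7, 66.8 and 77.8 CPM against 119.6, 120.2 and 107 CPM (log2 fold change -0.70, SE 0.15, adjusted p = 0.0119). MCM6 was at 126, 86.9 and 109.8 CPM against 166, 161 and 133 CPM (log2 fold change -0.66, SE 0.18, adjusted p = 0.027). The groups did not overlap at these 3 genes. Without S18, 9 genes passed. With upper-quartile normalisation, 5 were higher and 8 lower and the median was 0.03, as this scaling moved the median of all genes by 0.20, while the distance of the 55 genes from all genes was -0.27 under either scaling.

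CDKN1A was lower in the MSTRG.4401.1 KO as well, at 53.2, 34.0 and 41.7 CPM in the MSTRG.4401.1 KO and 156, 177 and 148 CPM in the MSTRG.2513.6 KO (log2 fold change -2.05, SE 0.18, adjusted p = 0.000183). MDM2 (log2 fold change -0.59, SE 0.17, adjusted p = 0.0306) and CCND1 (log2 fold change -0.51, SE 0.14, adjusted p = 0.028) were lower too, and without S18 neither passed (adjusted p = 0.118 for CCND1 and 0.111 for MDM2). Of the companion lists, 11 of 32 other S-phase genes were lower, led by RFC3 (-1.17, SE 0.23), and 9 of 35 other mitotic genes were lower and 1 higher. Over all genes tested, 19.8% were lower and 17.4% higher.

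**Figure D4:**
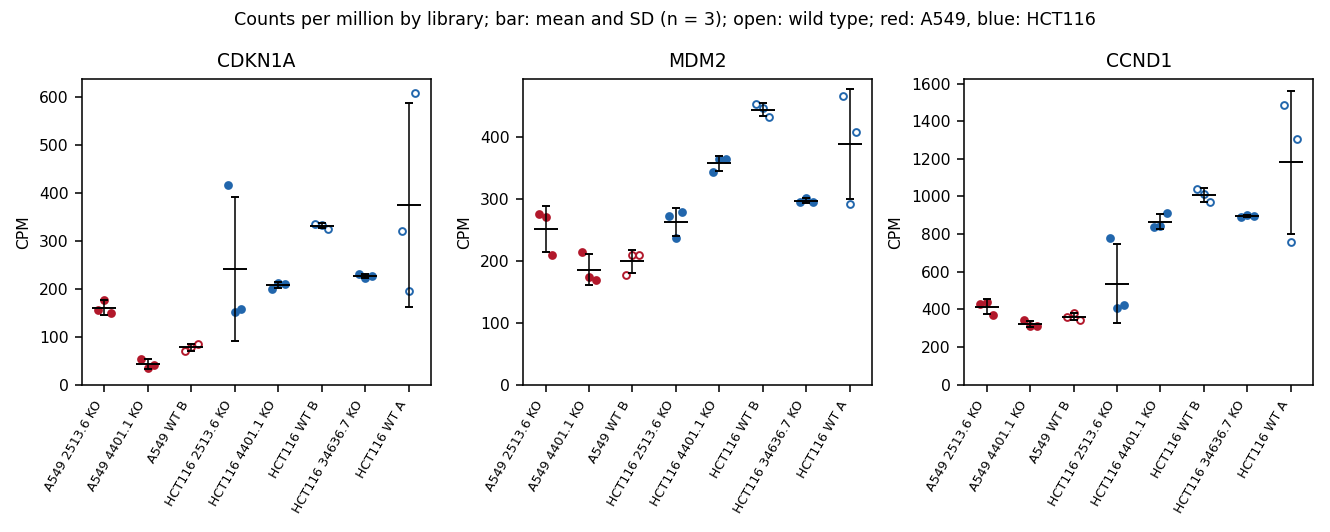
CPM of CDKN1A, MDM2 and CCND1 in each library (points) of the 8 groups, with the mean and SD (n = 3), open points for wild type, red for A549 and blue for HCT116. CDKN1A stands at 148 to 177 CPM in the A549 MSTRG.2513.6 KO, above the 70.7 to 85.5 CPM of A549 WT B, and at 34.0 to 53.2 CPM in the A549 MSTRG.4401.1 KO, below it. S11 stands apart from S8 and S9 at CDKN1A and CCND1.

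The HCT116 MSTRG.2513.6 KO cannot be read as 1 group, since S8 and S9 carry A549 markers. As labelled, 9 of the 55 genes fell against HCT116 WT B, where 0.629% of 26374 genes tested fell, and 5 were called (CCNE2, CDT1, CDC25A, E2F2 and NDC80), where 0.933% of all genes were. None rose by edgeR or by DESeq2 (15 lower), where 0.792% of all genes rose by edgeR. At an unadjusted p below 0.05 none was higher and 17 were lower, where 3344 and 2112 of 26374 genes tested were. The median was -0.28, against -0.02 over all genes. The other genes that fell were MCM3, CDK2, E2F7 and CDC20. CCNE2 was at 7.43, 6.78 and 7.14 CPM in S11, S8 and S9 (log2 fold change -1.48, SE 0.2, adjusted p = 0.0831). CDT1 was at 124, 65.4 and 60.1 CPM (log2 fold change -1.25, SE 0.19, adjusted p = 0.0935). CDC25A was at 30.6, 22.9 and 20.1 CPM (log2 fold change -1.17, SE 0.13, adjusted p = 0.0687). E2F2 was at 30.4, 30.6 and 32.4 CPM (log2 fold change -1.06, SE 0.17, adjusted p = 0.0948). All 3 libraries were below HCT116 WT B at these 4 genes, as A549 WT B was. Without S8 and S9 the log2 fold changes were -1.70 (SE 0.17) at CCNE2, -0.90 (SE 0.053) at CDT1, -1.11 (SE 0.088) at CDC25A and -1.39 (SE 0.068) at E2F2. TOP2A was at 150.2, 531 and 551 CPM, and its S8 and S9 levels were above every HCT116 library. Without S11, the 2 libraries with A549 markers gave 42 genes that passed, and leaving out any other single library gave 0.

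S11 by itself showed a broad decrease. Without S8 and S9, and with S11 assumed to vary like wild type, 53 of the 55 genes were lower than HCT116 WT B by edgeR, where 15.9% of 30219 genes tested were. The median was -0.93, against 0.01 over all genes, and the fitted values ran from -2.11 to -0.45. The role medians lay between -0.75 for the proliferation markers and -1.21 for the synthesis genes. CDC25C and CENPA were the genes that did not pass. S11 held 266 CPM of RRM2, where HCT116 WT B held 603, 582 and 648 CPM, and 55.7 CPM of MYBL2, where wild type held 102, 98.2 and 99.4 CPM. It held 335 CPM of MKI67 against 623, 649 and 612 CPM, 96.4 CPM of CCNB1 against 190.0, 206 and 199 CPM, 71.8 CPM of CDK1 against 119.7, 119 and 117 CPM, and 137 CPM of PCNA against 294, 287 and 286 CPM. CDKN1A was at 415 CPM in S11, above the 335, 333 and 325 CPM of wild type. This is 1 library, and no second HCT116 library of this deletion bears on it.

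The companion lists of this group rest on the same libraries. Without S8 and S9, 29 of 32 other S-phase genes fell, 28 of 35 other mitotic genes fell and 1 rose, 11 of 19 brakes fell and 4 rose, and 4 of 7 G1 drivers fell and 1 rose, where 15.9% of all genes fell and 12.7% rose. In that fit CDKN1A rose (log2 fold change 0.24, SE 0.05), and MDM2 (-0.79, SE 0.056) and CCND1 (-0.45, SE 0.059) fell. As labelled, 4 of 32 other S-phase genes, 3 of 35 other mitotic genes and 1 of 7 G1 drivers fell, and 1 brake (RBL2) and 1 G1 driver (CDK6) rose. Over all genes tested, 0.629% fell and 0.792% rose. CDKN1A was at 415, 151 and 157 CPM in S11, S8 and S9 (log2 fold change -0.35, SE 0.3, adjusted p = 0.564), and neither MDM2 (log2 fold change -0.55, SE 0.14, adjusted p = 0.136) nor CCND1 (log2 fold change -0.76, SE 0.17, adjusted p = 0.126) passed.

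**Figure D5:**
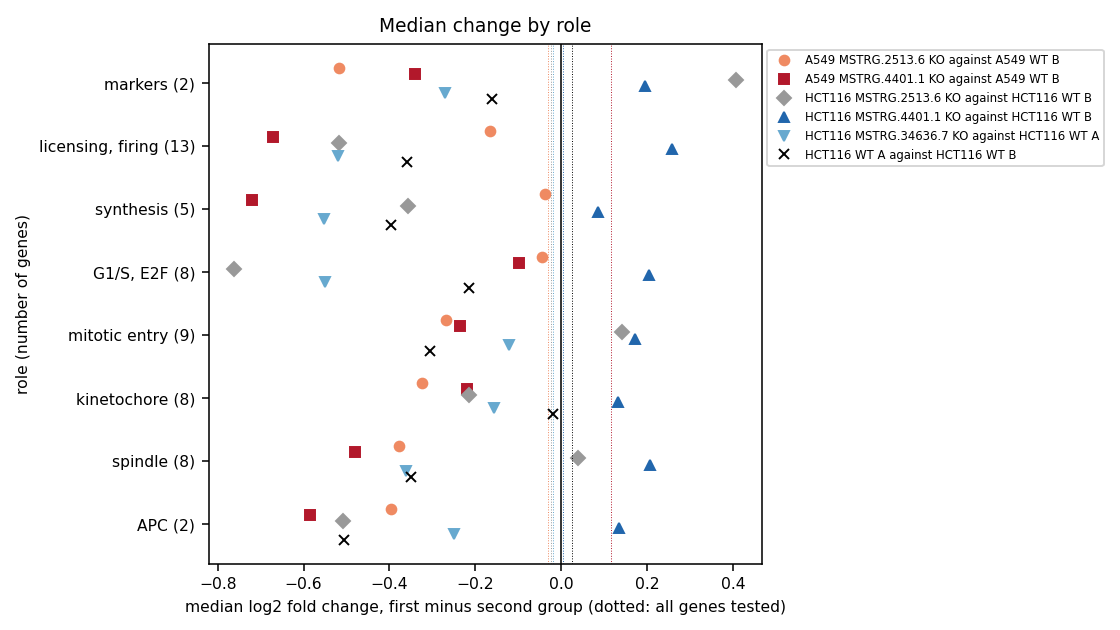
Median log2 fold change of the genes of each role (rows, with the number of genes) in the 5 knockout comparisons and in HCT116 WT A against WT B, with dotted lines for the median of all genes tested. The licensing and synthesis rows of the A549 MSTRG.4401.1 KO lie furthest left of its dotted line at -0.67 and -0.72, and the HCT116 MSTRG.4401.1 KO lies right of 0 in every role.

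Deletion in MSTRG.34636.7 in HCT116 was read against WT A, whose libraries were spread. Of the 55 genes 3 fell, where 0.972% of 28816 genes tested fell. None rose by edgeR or by DESeq2 (9 lower), where 1.18% of all genes rose by edgeR. At an unadjusted p below 0.05 none was higher and 24 were lower, where 2271 and 2048 of 28816 genes tested were. The median was -0.40, against -0.02 over all genes. No gene was called by edgeR, where 1.34% of all genes were, and 2 were called by DESeq2. At an unadjusted p below 0.05, 2 were past the same fold, and the share of all genes at that p and fold was not counted. The median coefficient of variation over the 55 genes was 30.7% in WT A and 4.30% in the KO.

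CDC6 was at 78.5, 80.4 and 76.2 CPM in the KO libraries and at 160.3, 113 and 150.1 CPM in WT A (log2 fold change -0.86, SE 0.17, adjusted p = 0.0675). CDC45 was at 18.9, 20.9 and 18.2 CPM against 28.9, 36.2 and 47.0 CPM (log2 fold change -0.97, SE 0.2, adjusted p = 0.0804). MYBL2 was at 50, 51.1 and 54.2 CPM against 66.8, 117 and 122 CPM (log2 fold change -0.98, SE 0.22, adjusted p = 0.0995). The KO libraries lay below WT A at all 3 genes, and WT A 1A was the lowest wild type library at CDC45 and MYBL2 but the highest at CDC6. RRM2 was at 242, 234 and 225 CPM against 312, 424 and 659 CPM without overlap and did not pass (log2 fold change -1.01, SE 0.26, adjusted p = 0.141), and MCM7 was uneven within the KO, at 210.0, 103 and 102 CPM (log2 fold change -1.17, SE 0.31, adjusted p = 0.143). Leaving out any KO library left 0 of the 55 genes past the threshold by edgeR, leaving out WT A 3A left 1, and leaving out WT A 1A gave 20.

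The proliferation markers, CCNB1 and CDC20 overlapped between these groups, unlike MYBL2. MKI67 was at 425, 417 and 517 CPM against 318, 827 and 680.0 CPM (log2 fold change -0.42, SE 0.31, adjusted p = 0.561). CCNB1 was at 114, 117 and 109 CPM against 62.7, 149 and 115 CPM (log2 fold change 0.06, SE 0.26, adjusted p = 0.941). CDC20 was at 168, 164 and 161 CPM against 113, 192 and 189 CPM (log2 fold change -0.01, SE 0.2, adjusted p = 0.99). In each case WT A 1A lay below the KO libraries and 2A above them. The other marker genes gave -0.12 (SE 0.2) at TOP2A, -0.23 (SE 0.23) at CDK1, -0.55 (SE 0.16) at E2F1, -0.72 (SE 0.34) at CCNE2, -0.35 (SE 0.15) at MCM2 and -0.55 (SE 0.2) at PCNA, and did not pass. Of the companion genes, 6 of 32 other S-phase genes fell, led by POLA2 (log2 fold change -1.35, SE 0.25, adjusted p = 0.0601), where 0.972% of all genes fell. So did 3 of 35 other mitotic genes, led by the kinetochore protein ZWINT (-1.21, SE 0.21), and 2 of 19 brakes, PKMYT1 and RBL1. None of POLA2, ZWINT, PKMYT1 and RBL1 passed when any 1 of the KO libraries was left out. CDKN1A (log2 fold change -0.76, SE 0.38, adjusted p = 0.386), MDM2 (log2 fold change -0.40, SE 0.19, adjusted p = 0.376) and CCND1 (log2 fold change -0.41, SE 0.26, adjusted p = 0.488) did not pass.

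The wild type sets of HCT116 differed from each other as well, at these genes no more often than over all genes tested. A KO set against the other wild type would carry that difference. Between WT A and WT B, 2 of the 55 genes were higher and 3 lower in WT A, where 5.56% and 6.71% of 27280 genes tested were higher and lower, and 2 were called, where 7.06% of all genes were. The called genes were FEN1, at 87.8, 102 and 143 CPM against 13.9, 10.5 and 12.4 CPM (log2 fold change 3.18, SE 0.23, adjusted p = 9.87e-05), and the centromeric histone CENPA, at 13.2, 24.4 and 22.4 CPM against 7.93, 4.89 and 4.41 CPM (log2 fold change 1.79, SE 0.3, adjusted p = 0.0084). Both share exon sequence with another gene, FEN1 with FADS2 and CENPA with SLC35F6. The genes that were lower were CCNB1 (log2 fold change -0.88, SE 0.27, adjusted p = 0.095), BIRC5 (log2 fold change -0.84, SE 0.25, adjusted p = 0.0897) and CDC20, at 113, 192 and 189 CPM against 295, 287 and 289 CPM (log2 fold change -0.83, SE 0.2, adjusted p = 0.0442). The median was -0.32, against 0.03 over all genes. Leaving out WT A 3A gave 22 genes that passed, leaving out WT A 1A gave 9, leaving out S12, S13 or S14 gave 2, and with upper-quartile normalisation 4 were higher and 1 lower. The other marker genes did not pass, from -0.43 (SE 0.15) at MCM2 to 0.44 (SE 0.18) at E2F1. Of the companion genes 7 of 32 other S-phase genes were lower, LIG1, the ligase of Okazaki fragments, by -1.81 (SE 0.32) among them, and 4 of 35 other mitotic genes were lower and 1 higher. CDKN1A (0.19, SE 0.37), MDM2 (-0.20, SE 0.19) and CCND1 (0.23, SE 0.25) did not pass.

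Summed over the 55 genes, HCT116 MSTRG.4401.1 KO stood highest at 9126 ± 35.7 CPM (SD, n = 3), followed by HCT116 WT B at 7852 ± 102 CPM and A549 WT B at 7576 ± 216 CPM, whose libraries overlapped. HCT116 WT A came next at 6406 ± 1681 CPM, its libraries spanning 4478 to 7562 CPM, with A549 MSTRG.2513.6 KO at 6254 ± 415 CPM and A549 MSTRG.4401.1 KO at 6111 ± 559 CPM inside that range. HCT116 MSTRG.34636.7 KO stood at 4788 ± 75.6 CPM, inside the range of its own wild type, and S11 alone at 4265 CPM, the lowest of all libraries. Each sum is a level that the most abundant genes dominate, so the order is a description and no test was run on it. The sums are also of CPM without further scaling. Between A549 WT B and HCT116 WT B, the median log2 difference of the 55 genes was -0.18 in CPM and 0.08 as fitted, so the order across lines can turn on the scaling.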

How the data were processed

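RNA was depleted of ribosomal RNA, made into strand-specific libraries and sequenced on an Illumina NovaSeq. By the submitters' processing notes and the study's methods, reads were trimmed with Trim Galore 0.6.6, checked with FastQC 0.11.9, aligned to GRCh38 with HISAT2 2.2.1 and quantified with StringTie. The annotation release and the use of strand in counting are not given in the sources used here. The authors deposited raw counts per gene symbol for each of the 24 libraries, not normalized, and the 60641 symbols common to all were used. From these counts, CPM were computed on library totals without further scaling. Depth ran from 25799359 to 102261808 counts per library, and the number of libraries (3 per group) limits the precision.

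A separate model was fitted for each comparison in edgeR 4.0.16 (limma 3.58.1, R 4.3.3): TMM normalization, its default filter on low counts, quasi-likelihood test (two-sided), Benjamini-Hochberg adjustment over all genes tested. SE is the size of the log2 fold change over the square root of F. The thresholds (FDR below 0.1, log2 fold change above 1 in size) are the study's. Groups follow the labels. Both A549 KO lines share the A549 WT B libraries, and the HCT116 MSTRG.2513.6 and MSTRG.4401.1 KO lines share HCT116 WT B. For 1 gene, exact permutation of 3 libraries against 3 gives p = 0.1 at the least and was not used. The alternatives were DESeq2 1.42.0, upper-quartile normalization, no filter, at least 10 counts in every library, FDR below 0.05, 1 fit over all libraries of a line, the other HCT116 wild type, leaving out libraries, and the replicate number as a block. The scripts were tested on simulated data.

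The members and the companion lists were chosen with earlier results of these data known. Named genes were, per comparison, up to 4 members with the highest and up to 4 with the lowest log2 fold change among those that passed without overlap of CPM, besides MKI67, TOP2A, CDK1, CCNB1, CDC20, E2F1, CCNE2, MCM2 and PCNA throughout, members called in 2 or more KO comparisons (there were none), CDKN1A, MDM2 and CCND1, and up to 3 genes per companion list. Other genes were named after their values were seen. One companion list and 1 gene are not reported here. Promoters are from RefSeq, and exon overlaps and gene positions from GENCODE v44.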

Additional observations from a re-analysis of the deposited data

Results flagged for a closer look

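The effect of the MSTRG.4401.1 deletion differed between A549 and HCT116 by a test of the difference itself (edgeR's interaction term, adjusted over all genes tested). The effect was lower in A549 for 39 of the 55 genes. Among the named replication genes the difference of log2 fold changes, A549 minus HCT116, was -1.18 at MCM2, -1.14 at CDC6, -0.91 at MCM6, -0.90 at CDC45, -0.81 at TYMS, -0.50 at PCNA and -1.32 at FEN1, whose counts are uncertain. Among the named mitotic genes it was -0.95 at BIRC5, -0.94 at AURKB, -0.89 at CDC20, -0.87 at TOP2A, -0.82 at MYBL2 and -0.81 at CCNB1. The adjusted p values of these 13 genes ran from 9.72e-06 at CDC6 to 0.0448 at PCNA. The mitochondrial share of counts, 6.1% ± 2.3 (SD, n = 3) in the A549 KO and 2.09% ± 0.168 in the HCT116 KO, moved with this result, as did the lower totals of the A549 KO, whose part was not tested. The count was 39 with mitochondrial genes left out. Without S24 and S25 the A549 KO held S23 alone, itself at 3.5% mitochondrial counts, so that fit cannot test the mitochondrial share either. Leaving out mitochondrial genes removes only their own counts, so it cannot test what goes with a high mitochondrial share. With 3 libraries in each group, no single library was tested as an outlier.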

How the results depend on the processing

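Alternatives chosen after seeing the data were leaving out mitochondrial genes and leaving out S24 and S25 together. For the count of genes that passed, the count called and the median log2 fold change of the 55 genes, the following values changed, and the cause was not tested unless the setting itself names it. A549 MSTRG.4401.1 KO: called 0 and median -0.29 with upper-quartile normalization, and without S24 and S25, which leaves 1 KO library, 20 passed and the median was -0.32. HCT116 MSTRG.2513.6 KO: 15 passed with DESeq2, 19 in a fit of all HCT116 libraries, 0 passed and 0 were called with edgeR and no filter on low counts and at FDR below 0.05 (17 lower at an unadjusted p below 0.05), 2 passed, 2 were called and the median was -0.030 against WT A, and without S8 and S9 53 passed, 21 were called and the median was -0.93. HCT116 MSTRG.4401.1 KO: 0 passed in the fit of all HCT116 libraries, and against WT A 4 were called and the median was 0.51. HCT116 MSTRG.34636.7 KO: 9 passed and 2 were called with DESeq2, 1 passed with no filter, 0 at FDR below 0.05, 1 in the fit of all HCT116 libraries, and against WT B 49 passed and 13 were called. WT A against WT B: 9 passed with DESeq2, 3 with no filter and 3 at FDR below 0.05. MSTRG.4401.1 KO against MSTRG.2513.6 KO in A549: called 0 and median 0.026 with upper-quartile normalization. A549 against HCT116 wild type: median 0.014 with upper-quartile normalization, and 22 passed in 1 fit of all libraries.

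Leaving out each library in turn gave, as count passed, count called and median: 2 to 6, 0 to 1 and -0.31 to -0.14 in the A549 MSTRG.2513.6 KO (2 without S18, S20, S21 or S22, and a median of -0.14 and 1 called without S19), 24 to 40, 0 to 1 and -0.54 to -0.40 in the A549 MSTRG.4401.1 KO (0 called without S24), 0 to 42, 0 to 6 and -0.44 to -0.068 in the HCT116 MSTRG.2513.6 KO (the upper ends without S11, and 0 passed without any 1 of the other 5 libraries), 20 to 30, 0 to 0 and 0.17 to 0.22 in the HCT116 MSTRG.4401.1 KO, 0 to 20, 0 to 4 and -0.59 to -0.24 in the MSTRG.34636.7 KO (20 and 4 without WT A 1A, 3 called without WT A 2A, 1 passed without WT A 3A and 0 without any 1 KO library), 2 to 22, 2 to 4 and -0.49 to -0.12 for WT A against WT B (22 and 4 without WT A 3A, 9 passed without WT A 1A, and 2 without S12, S13 or S14), 9 to 20, 0 to 2 and -0.28 to -0.14 for the A549 KO lines (9 passed without S18, 0 were called without S24 and 2 without S18 or S19), 40 to 43, 6 to 8 and 0.04 to 0.12 between the wild types of the lines, and 33 to 43 passed for the interaction.

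Of the values of single named genes under the alternatives, 1898 kept their direction and their side of the threshold, 340 no longer passed, 7 came to pass and 3 reversed: CDKN2C at 0.31 and PURPL at -0.43 in the HCT116 MSTRG.4401.1 KO against WT A, and PURPL at 1.95 in the MSTRG.34636.7 KO against WT B. Libraries that share a replicate number deviated together by correlations of at most 0.064, so the pairing was treated as a shared number only. With the replicate number as a block, 0 genes passed in the MSTRG.34636.7 KO, each of whose libraries correlated best with its own number (0.00907, 0.0273 and 0.064), and 8 in WT A against WT B, and the other blocked values were within 1.5 times. Depth limits FEN1, CCNE2 and CENPA most, whose smallest counts in any library were 28, 114 and 126.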
